A study of Macaca fascicularis with 16 samples.

Results

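The genes described here are those of small nucleolar, small Cajal body and spliceosomal RNAs. Members were chosen by their names and by their summed raw counts: every gene symbol starting with SNORA, SNORD, SCARNA or RNU that held 50 or more counts over the 16 libraries. Of 422 such symbols, among 23602 symbols in the count tables, 98 met the rule. They were 58 of 106 H/ACA box genes (SNORA), 20 of 263 C/D box genes (SNORD, with RNU86, a C/D RNA without a count here), 16 of 24 Cajal body genes (SCARNA) and 4 of 29 spliceosomal genes (the other RNU). The libraries were total RNA of unfractionated peripheral blood mononuclear cells (PBMC) from 4 Mauritian-origin cynomolgus macaques, LG04, LG11, LG12 and LG15. Each animal was bled before NKTT320, an antibody against the invariant T-cell receptor of iNKT cells, and again 30 minutes, 2 hours and 1 day after it. No strain, age or dose is named in the labels, and all 4 animals received the antibody. There were no untreated animals, so an effect of the antibody and one of time or repeated bleeding cannot be told apart. In bulk samples like these, fewer cells of a type and less RNA per cell cannot be told apart either.

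Small nucleolar RNAs are short stable RNAs of the nucleolus that direct chemical modification of other RNAs by base pairing. H/ACA RNAs direct pseudouridylation, carried out by dyskerin (DKC1), and C/D RNAs direct methylation of the ribose, carried out by fibrillarin (FBL). Most of their targets are in ribosomal RNA. Small Cajal body RNAs carry either kind of box, or both, and modify the RNAs of the spliceosome. Most small nucleolar RNAs are cut out of introns of host genes, many of which encode ribosomal proteins or translation factors. Spliceosomal RNAs are the RNA core of the splicing machinery. A major set removes most introns, and a minor set built on U11, U12, U4atac and U6atac removes a rare class.

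The classes were measured unequally. The 16 Cajal body genes held 152852 of the members' 248474 counts, the H/ACA genes 72336, the C/D genes 22860 and the spliceosomal genes 426. Of the 422 symbols, 197 had no count in any library and 127 had 1 to 49. Among the symbols without a count were 47 copies of SNORD115, 22 copies of RNU6 and 3 of RNU5. The 29 copies of SNORD116 held 24 counts in all. All 4 spliceosomal members, RNU11, RNU4ATAC, RNU6ATAC and RNU12, belong to the minor spliceosome. The last member inside the rule was SNORA71A with 52 counts, and the first symbols outside it were SNORA80 with 49 and SNORD26 with 48. Totals per library ran from 1417467 to 8582852 counts, and 4 libraries lay under 2000000: LG12 and LG04 at 1 day, LG12 at 30 minutes and LG15 at 2 hours. The 1 day library of LG04 stood apart from its animal. Over all tested genes its log2 CPM correlated at 0.969 with LG15 at 1 day and 0.955 with LG15 before dosing, against 0.873 to 0.907 with the other libraries of LG04. A mistaken label was not tested for. Its values and the ratios within LG04 at 1 day hold only if its label does. A count of 3 equalled 0.35 to 2.12 CPM, that is, counts divided by the library total and given per 1000000, which is the floor of a single value. Intervals of counting are not given, since these reads carry no molecular identifiers. Levels below are CPM scaled by the trimmed mean of M values (TMM), and animals are listed in the order LG04, LG11, LG12, LG15.

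The H/ACA, C/D and spliceosomal classes each stood higher at 1 day than before dosing in all 4 animals, and the Cajal body class in 3. Summed over its 58 genes, the H/ACA class held 620, 596, 742 and 825 CPM before dosing and 1859, 1186, 3006 and 2216 CPM at 1 day. The 1 day and pre-treatment ranges did not overlap, and the ratio within an animal ran from 1.99 in LG11 to 4.05 in LG12. The 20 C/D genes held 157, 134, 269 and 207 CPM before dosing and 799, 229, 1834 and 833 CPM at 1 day. LG11 at 1 day lay below LG12 before dosing, so these ranges overlapped, and the ratio ran from 1.71 in LG11 to 6.81 in LG12. The 16 Cajal body genes held 1766, 1937, 1822 and 1549 CPM before dosing and 2363, 1715, 4107 and 3455 CPM at 1 day. LG11 was the animal that was lower, at 0.885 of its own pre-treatment level. Without SCARNA2 the class held 1228, 1594, 1714 and 1433 CPM before dosing and 2183, 1607, 3808 and 2772 CPM at 1 day, so that LG11 was level. The 4 spliceosomal genes held 2.85, 3.40, 5.05 and 4.81 CPM before dosing and 35.5, 8.49, 16.3 and 14.2 CPM at 1 day, again without overlap. These sums came from 17, 29, 26 and 26 counts before dosing and 54, 71, 28 and 36 counts at 1 day. In LG04 RNU11 alone made up 96.3% of the 1 day sum, and RNU4ATAC and RNU12 had no count there.

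Between these ends the animals went different ways. At 30 minutes the H/ACA sum was 1.75 times the pre-treatment level in LG04 and 2.03 times in LG12, against 0.918 in LG11 and 1.06 in LG15. At 2 hours it was 2.18 times in LG04 and 1.33 times in LG15, against 0.814 in LG11 and 0.749 in LG12. The C/D sum reached 3.04 times in LG12 at 30 minutes and 3.10 times in LG15 at 2 hours. Both of those libraries held under 2000000 counts. LG12 at 2 hours was back at 0.842 of its pre-treatment C/D level. The Cajal body sum was 1.30, 0.865, 1.93 and 1.26 times the pre-treatment level at 30 minutes and 0.986, 0.828, 0.989 and 1.28 times at 2 hours. The spliceosomal sum was 1.71, 0.590, 1.09 and 0.435 times at 30 minutes and 3.38, 0.638, 0.728 and 0.831 times at 2 hours. It came from 26, 9, 13 and 16 counts at 30 minutes and 32, 18, 17 and 8 counts at 2 hours.

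**Figure D1:**
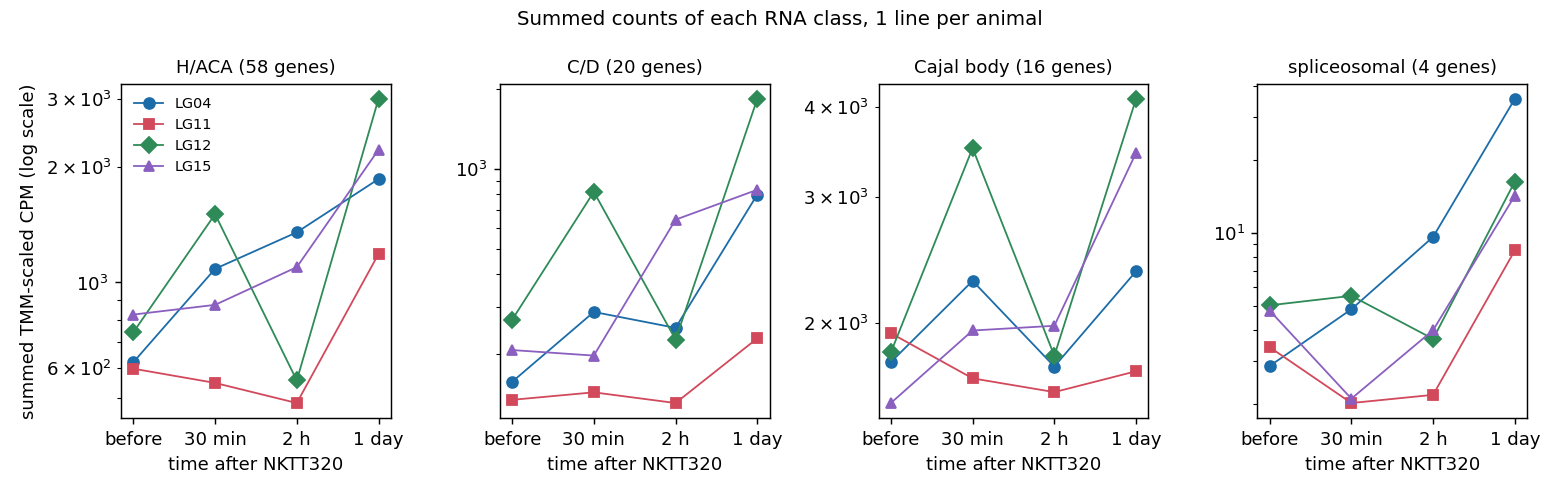
Summed TMM-scaled CPM (log axis, its range differing by panel) of the members of each RNA class, with time after NKTT320 on the horizontal axis and 1 line per animal. The 1 day point is the highest of each animal for H/ACA, C/D and spliceosomal RNAs, while the Cajal body line of LG11 stays between 1604 and 1937 CPM.

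Single genes were tested in 1 fit of all genes and libraries with time and animal as terms (edgeR quasi-likelihood F test, p-values adjusted over 11545 genes by the Benjamini-Hochberg method, threshold 0.05). The low-count filter kept 73 members: 44 H/ACA, 14 C/D, 14 Cajal body and RNU11. At 1 day against pre-treatment 3 members were past the threshold and higher, and 0 were lower. Over all genes tested 0.052% were called higher and 0.173% lower. The 3 were SNORA21, SNORA68 and SNORA54. These genes had been called in an earlier treatment of the same data, which led to the choice of the family, so their calls are not independent support for the family. No other member passed. Leaving out 1 animal kept 1 of the 3 calls without LG15 (SNORA21) and 0 without LG04, LG11 or LG12. Of all genes 0.398% were called higher without LG15 and 0% without LG04, LG11 or LG12. With no animal term there were 0 calls, and of all genes 0% were called higher and 0.026% lower. With DESeq2 there were 32 calls, the 3 among them, against 2.51% of all genes called higher by DESeq2. At an unadjusted p under 0.05, 53 of the 73 were higher and 0 lower, against 8.47% and 5.13% of all genes.

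The direction at 1 day was shared by most members. The fitted change was above 0 in 69 of 73 tested members, against 50% of all genes tested. It was above 0 in 42 of 44 H/ACA, 14 of 14 C/D and 12 of 14 Cajal body members. The median log2 fold change was 1.21 for the tested H/ACA members, 1.20 for C/D and 1.28 for Cajal body, beside -0.00 for all genes tested. The low-count filter also uses the 1 day libraries, so a gene high only then can pass it. Counts and medians over the 73 tested members share that limit. With no filter, so that all 98 members had a value, 89 were above 0. The medians were then 1.03 (H/ACA), 1.10 (C/D), 0.86 (Cajal body) and 0.95 (spliceosomal). Levels were higher at 1 day in every animal for 47 of the 73, against 9.83% of all genes, and lower in every animal for 1, against 9.09%. For 17 of the 73 the lowest 1 day library lay above the highest pre-treatment library, against 0.866% of all genes. The reverse held for 0 members and 2.07% of all genes.

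The same counts at the earlier times were smaller. At 30 minutes 58 of 73 members had a fitted change above 0 (54% of all genes), with a median of 0.38. No member was past the threshold in edgeR or in DESeq2, but DESeq2 gave an adjusted p to only 31 of the 73. At an unadjusted p under 0.05, 5 were higher in edgeR (1.05% of all genes) and 6 in DESeq2 (0.823% of all genes). At 2 hours 46 of 73 were above 0 (52.7% of all genes), with a median of 0.22, and again none was past the threshold with either tool. In edgeR 2 were higher and 1 lower at an unadjusted p under 0.05, against 4.17% and 3.27% of all genes. Between 30 minutes and 2 hours 54 of 73 members had a fitted change below 0 (the change was above 0 in 52.4% of all genes), and none was past the threshold in edgeR or in DESeq2. In edgeR 2 were higher and 7 lower at an unadjusted p under 0.05, against 2.31% and 2.29% of all genes. Between 2 hours and 1 day 69 of 73 were above 0 (48.1% of all genes). SNORA68 alone was past the threshold there, while 0.0346% of all genes were called higher and 0.0693% lower. At an unadjusted p under 0.05, 42 members were higher and 0 lower, against 7.12% and 5.48% of all genes.

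**Figure D2:**
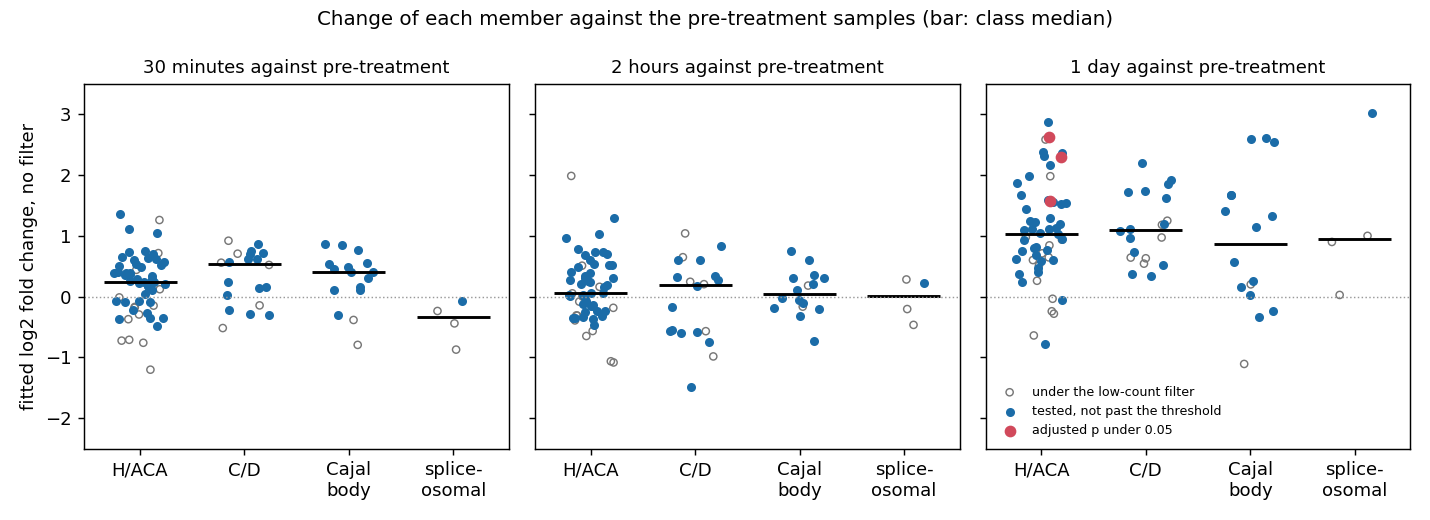
Fitted log2 fold change of each of the 98 members against pre-treatment, in 1 panel per time, by class; all values come from the fit with no filter, bars are class medians, filled points passed the low-count filter and red points had an adjusted p under 0.05 in the filtered fit. At 1 day the H/ACA, C/D and Cajal body medians are 1.03, 1.10 and 0.86, and the 3 red points are H/ACA genes.

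Without the 4 libraries under 2000000 counts the 30 minute difference was gone: 42 of 85 tested members were above 0 (50.8% of all genes) and the median was -0.00. That fit had only LG11 and LG15 at 1 day and lacked LG12 at 30 minutes. Depth and the animals left out cannot be told apart in it. The 1 day difference remained in direction, with 76 of 85 above 0 (49.9% of all genes), a median of 1.07 and 41 higher at an unadjusted p under 0.05 (5.4% of all genes), but no member was past the threshold. Of all genes 0% were called higher or lower at 1 day in that fit. Scaling to total counts alone lowered the median of all genes by 0.18, 0.29 and 0.21 at the 3 times. On that scale 67 of 73 members were above 0 at 1 day, against 27.1% of all genes. At 2 hours 30 of 73 were above 0, against 20.9% of all genes, and the median was -0.11, beside -0.26 for all genes.

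Without the 1 day library of LG04 the members' difference at 1 day was as large: 74 of 77 tested members were above 0 (53% of all genes), with a median of 1.26 and 45 higher at an unadjusted p under 0.05 (7.8% of all genes). SNORA21 and SNORA68 were then past the threshold and SNORA54 was not. Of all genes 0.042% were called higher in that fit and 0.109% lower.

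Among H/ACA RNAs, SNORA21 had the largest change of those that passed. It lies in an intron of RPL23, a ribosomal protein gene. Its level was 5.20, 1.17, 6.22 and 7.03 CPM before dosing and 44.7, 3.83, 58.0 and 37.1 CPM at 1 day. Each animal was higher at 1 day, but the groups overlapped because LG11 stayed low throughout. At 30 minutes the values were 16.3, 4.02, 23.0 and 8.38 CPM, and at 2 hours 11.1, 2.53, 5.41 and 13.5 CPM, above the pre-treatment level in all but LG12 at 2 hours. SNORA21 rose at 1 day by 2.68 ± 0.40 on the log2 scale (standard error, SE; n = 4 animals at each time), with an adjusted p of 0.016 in edgeR.

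SNORA68 was highest at the last time in every animal. It measured 4.69, 2.46, 4.08 and 9.43 CPM before dosing and 6.55, 3.35, 11.5 and 10.3 CPM at 30 minutes, where LG12 stood well above its starting level. The 2 hour values were 6.33, 2.17, 3.68 and 10.5 CPM and the 1 day values 47.3, 5.26, 24.4 and 41.5 CPM. LG11 at 1 day lay within the pre-treatment range of the others. The change was 2.34 ± 0.35 against pre-treatment (log2, SE; edgeR adjusted p = 0.016) and 2.28 ± 0.36 against 2 hours (adjusted p = 0.0254). The call against 2 hours was lost without any 1 of the 4 animals and without the 1 day library of LG04.

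SNORA54, from an intron of NAP1L4, a histone chaperone gene, was the most abundantly counted H/ACA gene and made up 30.7% of that class before dosing. It measured 172, 171, 200 and 311 CPM before dosing and 627, 427, 928 and 720 CPM at 1 day, and the groups did not overlap. At 30 minutes LG04 and LG12 stood at 302 and 456 CPM, and LG11 and LG15 at 169 and 269 CPM, just under their own pre-treatment values. SNORA54 rose at 1 day by 1.62 ± 0.29 (log2, SE), with an edgeR adjusted p of 0.0465. Without the 1 day library of LG04 that p was 0.0579, and SNORA54 was then not past the threshold.

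**Figure D3:**
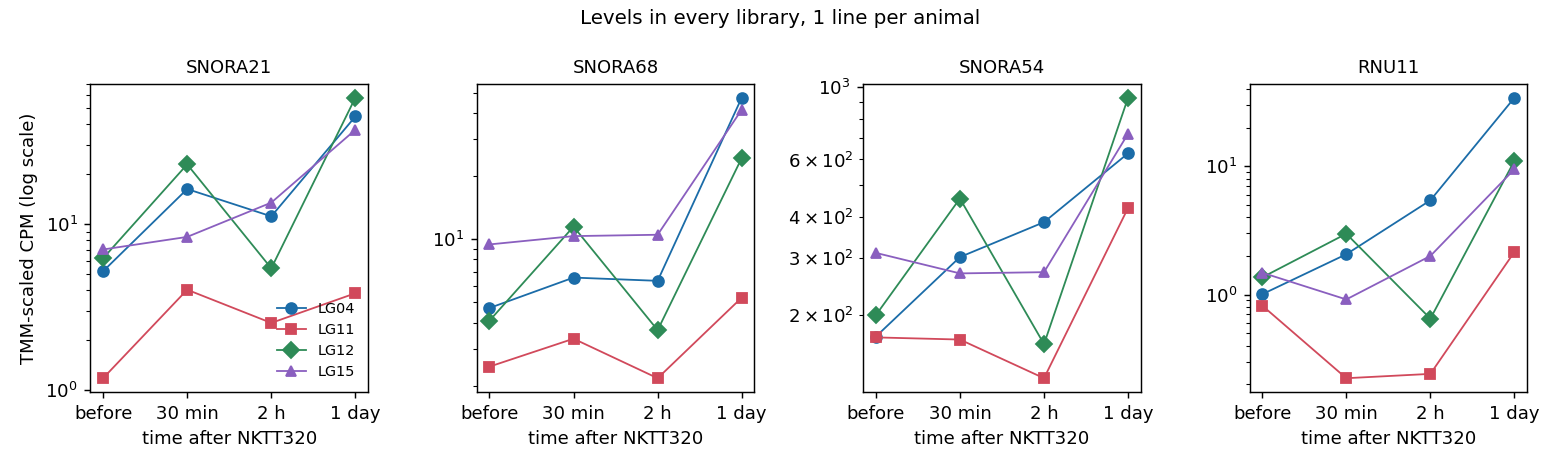
TMM-scaled CPM (log axis) of SNORA21, SNORA68, SNORA54 and RNU11 in all 16 libraries, with time on the horizontal axis and 1 line per animal. Every line ends above its start, and LG11 is the lowest animal at 1 day in each panel, at 3.83, 5.26, 427 and 2.15 CPM.

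The other H/ACA genes with high counts had smaller or less even differences. SNORA48, 23.1% of the class before dosing, measured 112, 154, 165 and 211 CPM before dosing and 261, 356, 482 and 332 CPM at 1 day. The groups did not overlap, and the fitted change was 1.17 ± 0.32 (log2, SE; edgeR adjusted p = 0.122). SNORA49 measured 25.6, 27.8, 31.7 and 29.8 CPM before dosing and 48.0, 51.4, 85.3 and 78.6 CPM at 1 day, also without overlap (1.18 ± 0.29, adjusted p = 0.0925). SNORA57 went from 85.8, 55.5, 32.8 and 41.8 CPM to 257, 51.5, 562 and 328 CPM, so that 3 animals were higher and LG11 was not (2.21 ± 0.60, adjusted p = 0.117). SNORA53, in an intron of the mitochondrial phosphate carrier gene SLC25A3, stood at 7.88, 12.8, 30.5 and 13.5 CPM before dosing and 67.7, 9.09, 116 and 97.2 CPM at 1 day. It, too, was lower in LG11 alone (1.92 ± 0.81, adjusted p = 0.305).

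The remaining H/ACA genes with the largest fitted changes, besides SNORA21, were SNORA38B, SNORA16A, SNORA37 and SNORA20, none past the threshold. SNORA38B had the largest fitted change of the class, 2.91 ± 0.72 (log2, SE; edgeR adjusted p = 0.0966), on levels of 0.352 to 1.17 CPM before dosing and 0.837 to 13.3 CPM at 1 day. SNORA16A went from 17.8, 7.63, 11.9 and 14.8 CPM to 121, 13.8, 120 and 93.6 CPM (2.43 ± 0.52, adjusted p = 0.0755). SNORA37 went from 1.17, 1.76, 5.05 and 6.29 CPM to 17.7, 5.26, 37.7 and 21.3 CPM (2.41 ± 0.46, adjusted p = 0.0623). SNORA20 went from 1.34, 0.587, 0.972 and 1.29 CPM to 3.94, 1.91, 8.13 and 9.88 CPM, without overlap (2.36 ± 0.66, adjusted p = 0.124). In all 4 genes each animal was higher at 1 day, with LG11 again the lowest at that time.

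A few H/ACA genes did not share the direction. SNORA31, from an intron of TPT1, was the tested member with the most negative change, -0.75 ± 0.41 (log2, SE; edgeR adjusted p = 0.494), and was lower at 1 day in all 4 animals. It measured 2.35, 3.05, 2.53 and 3.15 CPM before dosing and 1.31, 2.51, 1.74 and 1.19 CPM at 1 day, values near the floor of the shallow libraries. SNORA28 had a fitted change of -0.02 ± 0.49. With no filter SNORA18, SNORA58, SNORA75 and SNORA77 were also below 0. These 6 genes were singled out after their values were seen.

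Among C/D RNAs, 1 gene carried much of the class. SNORD17, from an intron of the sorting nexin gene SNX5, supplied 48.9%, 43.7%, 69.3% and 42.9% of the C/D level before dosing and 66.6%, 33.7%, 81.8% and 64.4% at 1 day, a larger share in all but LG11. It measured 76.9, 58.8, 187 and 88.8 CPM before dosing and 532, 77.2, 1499 and 537 CPM at 1 day. LG12 was already at 610 CPM at 30 minutes, and LG15 at 488 CPM at 2 hours, while LG11 stayed between 58.5 and 77.2 CPM at all times. The fitted change at 1 day was 2.24 ± 0.59 (log2, SE; edgeR adjusted p = 0.111).

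SNORD10, whose host is the translation initiation factor gene EIF4A1, was more even: 28.5, 22.5, 23.7 and 22.8 CPM before dosing and 114, 36.5, 131 and 119 CPM at 1 day. The groups did not overlap and the change was 1.89 ± 0.41 (adjusted p = 0.0805). SNORD89 went from 17.6, 19.5, 15.9 and 29.6 CPM to 31.5, 52.9, 41.2 and 36.4 CPM (1.00 ± 0.26, adjusted p = 0.11), and here LG11 was the highest animal at 1 day. SNORD94, which guides methylation of the U6 spliceosomal RNA, went from 7.71, 9.27, 13.6 and 20.2 CPM to 43.4, 14.3, 78.4 and 66.4 CPM (1.77 ± 0.52, adjusted p = 0.14). SNORD97 measured 8.38, 7.75, 5.83 and 8.88 CPM before dosing and 15.1, 9.33, 34.2 and 16.6 CPM at 1 day, narrowly without overlap (1.13 ± 0.38, adjusted p = 0.188). LG04 and LG12 had reached 23.4 and 24.2 CPM of SNORD97 at 30 minutes and were back at 9.94 and 5.84 CPM at 2 hours.

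SNORD8 and SNORD15A complete the C/D genes with the largest fitted changes. SNORD8 went from 0.503, 1.06, 0.972 and 1.67 CPM to 2.63, 2.39, 6.96 and 3.95 CPM, without overlap (1.78 ± 0.41, edgeR adjusted p = 0.0895). SNORD15A went from 1.84, 0.939, 5.64 and 2.96 CPM to 19.7, 1.67, 8.13 and 19.8 CPM (1.97 ± 0.68, adjusted p = 0.192), with each animal higher. All 20 C/D members, including the 6 under the filter, had a fitted change above 0 at 1 day with no filter, between 0.34 and 2.19.

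The Cajal body class was mixed. Its most counted member, SCARNA10, carries both box types and acts on the U5 spliceosomal RNA. It measured 209, 413, 340 and 337 CPM before dosing and 605, 529, 1148 and 754 CPM at 1 day. The groups did not overlap, and the change was 1.20 ± 0.30 (log2, SE; edgeR adjusted p = 0.1). SCARNA7, a guide for U1 RNA from an intron of KPNA4, changed less but was higher at 1 day in each animal. It measured 249, 328, 513 and 364 CPM before dosing and 375, 353, 590 and 439 CPM at 1 day (0.29 ± 0.14, edgeR adjusted p = 0.366). SCARNA10 was below SCARNA7 before dosing and above it at 1 day in LG04, LG12 and LG15, and above it at both times in LG11.

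SCARNA2, a guide for U2 RNA with its own gene, went in opposite directions in different animals. In LG04 it stood at 538, 322, 181 and 179 CPM over the 4 times, and in LG11 at 344, 221, 78.6 and 108 CPM. In LG12 it stood at 108, 108, 161 and 299 CPM, and in LG15 at 116, 318, 317 and 682 CPM. The first pair was lower at 1 day and the second pair higher, and the fitted change was 0.07 ± 0.60 (edgeR adjusted p = 0.993). Whether the animals differ in this was not tested, since each has 1 library at each time.

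SCARNA6 and SCARNA21 complete the 5 most counted. SCARNA6 measured 205, 219, 266 and 216 CPM before dosing and 315, 189, 541 and 438 CPM at 1 day (0.62 ± 0.30, edgeR adjusted p = 0.396), lower in LG11 alone. Its 30 minute value in LG12, 698 CPM, was above the 1 day value. SCARNA21 measured 200, 214, 168 and 172 CPM before dosing and 119, 171, 219 and 154 CPM at 1 day (-0.19 ± 0.22, adjusted p = 0.835), higher in LG12 alone.

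Other Cajal body genes, chosen after their values were seen, lay at both ends. SCARNA20 went from 1.00, 1.53, 1.75 and 1.11 CPM to 13.1, 2.75, 16.3 and 10.3 CPM, without overlap (2.66 ± 0.50, edgeR adjusted p = 0.0548). SCARNA22 (2.63 ± 0.56) and SCARNA8 (2.59 ± 0.55), both with an adjusted p of 0.0755, had levels of at most 1.11 CPM before dosing, close to a handful of counts. SCARNA5 and SCARNA6, which share the host ATG16L1, differed in their fitted changes, 1.45 ± 0.42 and 0.62 ± 0.30, though the difference between them was not tested. SCARNA9, a U2 guide, measured 82.1, 66.8, 97.4 and 77.3 CPM before dosing and 53.2, 84.3, 62.7 and 60.1 CPM at 1 day (-0.29 ± 0.21, adjusted p = 0.641). SCARNA17 went from 74.7, 47.9, 77.4 and 40.1 CPM to 69.0, 40.7, 94.0 and 78.2 CPM (0.19 ± 0.23, adjusted p = 0.834).

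**Figure D4:**
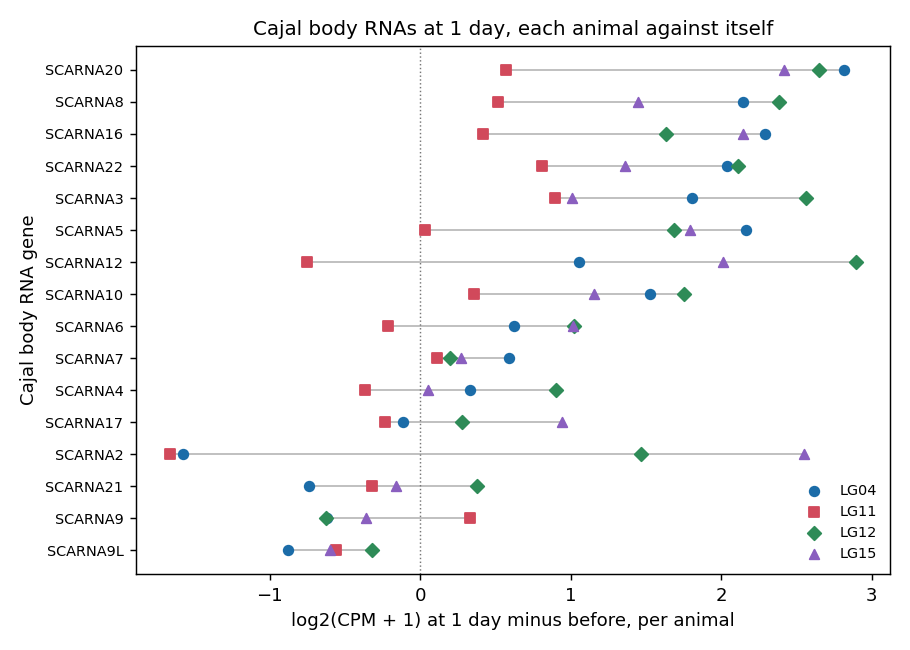
Difference in log2(CPM + 1) between 1 day and pre-treatment (horizontal axis) for the 16 Cajal body RNA genes (vertical axis, ordered by their mean), with 1 point per animal and a grey line over the range. SCARNA2 spans both sides of 0, SCARNA9L lies below 0 in all 4 animals, and LG11 is the leftmost point for most genes with a high mean. SCARNA9L was under the low-count filter, with 5, 16, 5 and 6 counts before dosing and 0, 8, 1 and 1 at 1 day.

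Of the spliceosomal genes, RNU11 was the one with enough counts to be tested. The RNA it encodes, U11, recognises the upstream splice site of minor introns. It measured 1.00, 0.82, 1.36 and 1.48 CPM before dosing and 34.2, 2.15, 11.0 and 9.48 CPM at 1 day, from 6, 7, 7 and 8 counts before dosing to 52, 18, 19 and 24 counts at 1 day. The groups did not overlap, and the change was 3.06 ± 0.57 (log2, SE), the largest of all tested members. Its edgeR adjusted p was 0.0532, just outside the threshold. It was 0.0304 with scaling to total counts and 0.0185 with no filter, and 0.104 without the 1 day library of LG04, the highest of the 4. DESeq2 gave 0.000281, and with the platelet covariate the change was 1.32 ± 0.66 with an adjusted p of 0.963. RNU11 made up 35.3%, 24.1%, 26.9% and 30.8% of the spliceosomal level before dosing and 96.3%, 25.4%, 67.9% and 66.7% at 1 day, so that its share in LG11 was nearly level.

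The other 3 were near the floor. RNU4ATAC measured 1.17, 1.06, 0.777 and 1.29 CPM before dosing and 0, 2.99, 2.90 and 1.98 CPM at 1 day. RNU6ATAC measured 0.335, 0.821, 0.972 and 1.67 CPM before dosing and 1.31, 1.67, 1.16 and 2.77 CPM at 1 day. RNU12 measured 0.335, 0.704, 1.94 and 0.37 CPM before dosing and 0, 1.67, 1.16 and 0 CPM at 1 day. With no filter their fitted changes were 1.00, 0.90 and 0.03, beside 3.02 for RNU11. Differences between the 4 RNAs were not tested.

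The host genes did not share the members' direction. Hosts were assigned from general knowledge of human genes. In 45 pairs both the member and its host, 37 genes in all, were tested. At 1 day the median fitted change was 1.16 for the members and -0.12 for the hosts, and the member's change was the greater in 44 of 45 pairs. Signs were the same in 11 pairs. Over the 45 pairs, which share libraries and in part hosts, Pearson's r was -0.04 and Spearman's rho -0.00, given as a description. RPL23, the host of SNORA21, had a change of -0.17 ± 0.15 (edgeR adjusted p = 0.737), and NAP1L4, the host of SNORA54, -0.02 ± 0.11 (adjusted p = 0.975). Of 44 tested host genes 9 had a change above 0 and 35 below, and none was past the threshold. Reads from a host's unspliced introns can fall on the small RNA inside it, and such reads cannot be told from those of the small RNA in these tables.

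Members cut from 1 host were alike in some cases and unlike in others. SNORA6 and SNORA62, both in RPSA, had fitted changes of 1.61 and 1.58, and SNORA10 and SNORA64, both in RPS2, 1.09 and 1.07. SNORA20 and SNORA29, both in TCP1, had 2.36 and 0.99. SNORD10, SNORA48 and SNORA67, all in EIF4A1, had 1.89, 1.17 and 0.27. The differences within a host were not tested.

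**Figure D5:**
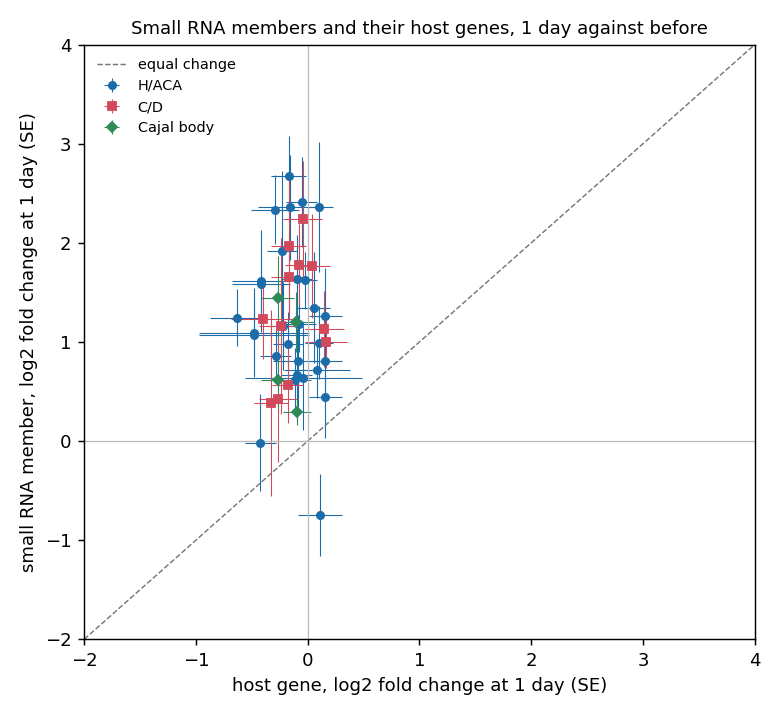
Log2 fold change at 1 day of each member (vertical axis) against that of its host gene (horizontal axis) for the 45 pairs in which both were tested, with SE bars and the line of equal change. All but 1 of the points lie above the line, and the hosts lie around a median of -0.12.

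Genes of the proteins that make, carry or trim these RNAs stayed near the median of all genes at 1 day, and none was past the threshold. Of 8 tested core proteins of the H/ACA and C/D particles, among them FBL and DKC1, 3 were above 0 and 5 below, with a median of -0.04. Of 14 assembly factors 5 were above 0 (median -0.02). Of 31 tested genes of spliceosomal particle assembly 15 were above 0 (median -0.02). Of 19 tested genes of small RNA transcription and end processing 9 were above 0 (median -0.02), and of 16 tested genes of the exosome and of end trimming 5 (median -0.08). A list of mostly non-coding host genes, which also held the protein-coding host TAF1D, had 6 of 13 above 0, with a median of -0.12.

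Short structured RNAs outside the family were not alike. RPPH1, the RNA of RNase P, measured 4499, 4873, 1529 and 2332 CPM before dosing and 13919, 1808, 18436 and 15153 CPM at 1 day, higher in LG04, LG12 and LG15 and lower in LG11 (1.62 ± 0.68, edgeR adjusted p = 0.301). RMRP, the RNA of the related RNase MRP, measured 749, 333, 828 and 373 CPM before dosing and 421, 367, 644 and 418 CPM at 1 day (-0.18 ± 0.25, adjusted p = 0.877). The telomerase RNA TERC had a change of 0.04 ± 0.42. Of 10 tested genes whose names start as those of microRNAs (MIR and a digit, or LET), 8 were above 0, with a median of 0.06. They were chosen by name start alone, so longer transcripts may be among them.

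At 1 day the summed platelet markers and the summed members were both higher than before dosing in every animal. Markers of red cells, monocytes and neutrophils went different ways in different animals. All 11 platelet markers had a count, and all 11 had a fitted change above 0 at 1 day (median 2.63), none past the threshold. Their summed level was 385, 121, 124 and 9414 CPM before dosing and 31426, 716, 977 and 25795 CPM at 1 day, lowest at 1 day in LG11. The members summed to 2546, 2672, 2838 and 2586 CPM before dosing and 5056, 3139, 8963 and 6518 CPM at 1 day. At 30 minutes the platelet and member sums were both higher than before dosing in LG04 and LG12, and went opposite ways in LG11 and LG15. At 2 hours they went opposite ways in all but LG04. With the platelet score as a covariate 63 of 73 members were above 0 at 1 day (54.5% of all genes), with a median of 0.72. At an unadjusted p under 0.05, 12 were higher (2.43% of all genes), and none was past the threshold, where 0% of all genes were called higher. Since the platelet sum was higher at 1 day in every animal, this fit cannot separate a part of platelets from one of time. All 7 red cell markers had a fitted change above 0 (median 1.55), but their summed level was higher at 1 day in LG12 and LG15 and lower in LG04 and LG11: 220788, 39827, 264 and 54460 CPM before dosing and 167135, 32480, 1432 and 261840 CPM at 1 day. Without the globin genes 3 members were past the threshold, the same 3, against 0.0433% of all genes called higher. Of 8 monocyte markers 7 were above 0 (median 1.41), with sums of 1460, 2034, 389 and 1235 CPM before dosing and 963, 7292, 1219 and 1077 CPM at 1 day, lower in LG04 and LG15. Of 7 neutrophil markers 5 were below 0 (median -1.19), and their sum was lower at 1 day in all but LG12. The defining T cell markers of these PBMC were present in every library, at 1094 to 1320 CPM before dosing and 886 to 1196 CPM at 1 day. The part of platelets in the members' change cannot be told from that of time, and the part of the monocyte and neutrophil markers was not tested.

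The peak of each member within an animal was mostly the last sample. Of 98 members 54 were highest at 1 day in LG04, 64 in LG11, 71 in LG12 and 67 in LG15. Over all 16 libraries 42 members were highest in LG12 at 1 day, the shallowest library, and 9 in LG12 at 30 minutes. Peaks were not counted over all genes, so how unusual these counts are is not known. LG11 at 1 day, a library of 7436071 counts, was the highest for 6 members. The family took 0.353% of all counts in that library, against 0.313% before dosing in the same animal, and 1.09% in LG12 at 1 day against 0.36% before dosing.

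The rule on 50 counts and the low-count filter use the 1 day libraries too, so a gene high at 1 day enters more easily. With counts of the 12 earlier libraries alone, 90 of the 98 members reach 50, and 82 of these had a fitted change above 0 at 1 day with no filter (median 1.06). The 35 H/ACA symbols with 1 to 49 counts, summed, stood at 7.54, 5.87, 12.2 and 7.40 CPM before dosing and 11.2, 8.49, 21.5 and 17.4 CPM at 1 day, higher in each animal. The 86 such C/D symbols stood at 6.03, 6.81, 13.2 and 12.2 CPM before dosing and 11.2, 17.7, 8.71 and 19.4 CPM at 1 day, lower in LG12 alone.

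Levels of different members are not ranked here per length. The deposited FPKM values imply a median effective length of 8.56 bases for H/ACA, 2.6 for C/D, 80.84 for Cajal body and 8.15 for spliceosomal members, against 1749 for ACTB and 1293 for GAPDH, so that FPKM of these short genes is raised out of proportion. Within a gene, the mean difference in log2 FPKM between 1 day and pre-treatment had the same sign as that in log2 CPM for 89 of 98 members. It was above 0 for 80 by FPKM and 89 by CPM, and for 15 of 20 C/D members by FPKM against 20 of 20 by CPM. SNORD2, a C/D member with 101 counts, had an FPKM of 0 in every library and so could not be above 0. The CPM were also TMM-scaled, while the FPKM were scaled by library size.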

How the data were processed

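Whole-number counts per gene were read from the deposited tables of each animal, as the authors made them and without normalization. The deposited FPKM tables hold the authors' values per length and library size and were used for 1 check. Per the submitters' processing notes, reads were handled with Trimmomatic, STAR, HTSeq, DESeq and edgeR on human builds (GRCh37, hg19). No version or strand setting is known here, so a member that overlaps an opposite-strand gene is uncertain. Per the labels' protocols, RNA was purified on silica columns, which keep short RNAs poorly, and ribosomal RNA was removed before stranded library preparation. Counts were fitted with edgeR 4.0.16 in R 4.3.3 (TMM, filterByExpr, terms for time and for animal, leaving 9 degrees of freedom). SE is the fitted change divided by the square root of F. DESeq2 1.42.0 was an alternative. The fit was tested on simulated data.

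Members, classes and gene lists were chosen with earlier results of these data known. Named members were those past the threshold in any of 5 comparisons, the 5 with the highest mean CPM per class, the 5 H/ACA and 5 C/D genes with the largest change at 1 day, all spliceosomal genes and those next to the limit of 50 counts. Comparisons share libraries and were not compared by overlap. The animals were the same at each time, which is why animal is a term: deviations from the time means correlated within an animal at a median of 0.56, over 0.1 in 23 of 24 pairs. No library batch is named in the labels. Alternatives were other scaling, DESeq2, no filter, no animal term, leaving out animals, libraries or globin genes, and a platelet covariate; a filter at 1 CPM in 4 libraries and the member limit over earlier libraries were added after seeing the data. The host gene of 1 named member is not reported here.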

Additional observations from a re-analysis of the deposited data

Results flagged for a closer look

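In 124 groups of 4 libraries (the named members at each time and the class sums), 6 held a library far from the other 3 of its time; chance gives about 1 in 20. In SNORA53 these were LG12 at 30 minutes, with 89.7 CPM against 10.3 for the next library, and LG15 at 2 hours, with 121 against 25.98. In SNORA38B they were LG12 at 30 minutes, with 5.53 CPM against 1.12, and LG15 at 2 hours, with 3.997 against 0.904. SNORA37 stood apart in LG12 at 30 minutes (12.8 CPM against 3.53) and SNORD15A in LG15 at 2 hours (14.99 against 2.71). LG12 at 30 minutes and LG15 at 2 hours gave 3 each, and both hold under 2000000 counts.

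SNORA68 was flagged because its change differed between successive times: it was 2.28 higher on the log2 scale at 1 day than at 2 hours (edgeR adjusted p = 0.0254, n = 4 animals, higher in 4 of 4), and that call was lost when any 1 animal was left out.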

How the results depend on the processing

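At 1 day against pre-treatment the 3 calls were 3 with DESeq2's size factors, without globin genes and with the added filter at 1 CPM (the same 3 genes each time), 7 with total counts only, 11 with no filter and 32 with DESeq2, each including the 3; of all genes 0.191%, 0.181% and 2.51% were called higher in these fits. With DESeq2's size factors 0.052% of all genes were called higher, without globin genes 0.0433% and with the filter at 1 CPM 0.0549%. There were 2 member calls without LG04 at 1 day, where 0.042% of all genes were called higher. There were 0 with no replicate block, without the libraries under 2000000 counts and with the platelet covariate, where 0% of all genes were called higher. Leaving out 1 animal gave 0 to 1 (SNORA21, without LG15). The fitted changes then ran from 2.50 to 2.93 for SNORA21, from 1.94 to 2.71 for SNORA68 and from 1.45 to 1.78 for SNORA54. Of all genes 0.398% were called higher without LG15 and 0% without LG04, LG11 or LG12. These fits also have fewer degrees of freedom, so a lost call cannot be put down to the animal left out. Between 2 hours and 1 day the 1 call became 6 with total counts only, 14 with DESeq2 (of 41 members with an adjusted p) and 4 with no filter, where 0.078%, 0.645% and 0.0372% of all genes were called higher. It became 0 with no replicate block, without the libraries under 2000000 counts, without LG04 at 1 day, with the platelet covariate, and 0 to 0 when leaving out 1 animal. Of all genes 0% were called higher in the first 2 of these fits, 0.0252% without LG04 at 1 day and 0.0173% with the platelet covariate. Leaving out all of LG04 gave 0.00865%, and leaving out LG11, LG12 or LG15 gave 0%. The other 3 comparisons had 0 calls under every alternative run, though DESeq2 at 30 minutes gave an adjusted p to only 31 members. The no replicate block fit changed no other call.

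The H/ACA median at 1 day ran from 1.08 to 1.48 when leaving out 1 animal and was 0.73 with the platelet covariate. The C/D median at 1 day ran from 1.08 to 2.07 and was 0.71 with that covariate. The C/D median ran from 0.061 to 0.91 at 30 minutes and from -0.24 to 0.51 at 2 hours. At 30 minutes it was 0.037 without the libraries under 2000000 counts, where the H/ACA median was -0.01. The spliceosomal share of counts at 2 hours was 5.14 CPM without globin genes, beside 3.94. The causes were not tested. Depth limits most the spliceosomal genes and the 1 day values of LG04 and LG12.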
